A study of Homo sapiens with 6 samples.

Results

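Potassium channel genes were taken as all genes of the count table whose symbol begins with KCN, followed by family letters, a number and at most 1 further letter, without KCNQ1OT1. This rule gave 96 of the 46427 genes in the table. The expression of these 96 genes was compared between Hs578T cells with control shRNA (shCTRL) and with CCN3 shRNA (shCCN3). Hs578T is a human triple-negative breast cancer cell line, and both groups carried a retroviral pSUPER vector and were selected with puromycin. The labels name CCN3 shRNA, and the methods give the sequenced line as shCCN3 #2, so that a single shRNA stands for the knockdown. The methods speak of puromycin-selected clones without their number, so that a difference between selected lines and an effect of the shRNA cannot be told apart. Each group had 3 mRNA libraries, given by the submitters as independent biological replicates, and it is not given whether these were separate transductions.

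Potassium channels let potassium ions leave or enter the cell along their gradient and thereby set the resting membrane potential. In epithelial and tumor cells they also take part in volume control, calcium entry, proliferation and migration. A channel is built from pore subunits, which the KCNA to KCND, KCNH, KCNQ, KCNJ, KCNK, KCNMA, KCNN, KCNT and KCNU genes encode. Electrically silent subunits (KCNF, KCNG, KCNS and KCNV) do not open on their own but assemble with Kv2 pore subunits, and auxiliary subunits (KCNAB, KCNE, KCNIP and KCNMB) tune gating or transport to the membrane.

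The libraries held between 56159110 and 68393177 counts. Counts were scaled to CPM, which sets the count of a gene relative to the total of its library with TMM factors, and 3 counts in a library corresponded to 0.0435 to 0.054 CPM, which covers counting error only. CCN3 mRNA fell from a mean of 101 CPM to 47.0 CPM (log2 change -1.10, SE 0.0554, edgeR-adjusted p = 1.34e-06, from the quasi-likelihood test that gives each adjusted p here). Of the markers of the cell line, VIM was at 7778 and AXL at 1093 CPM in shCTRL cells, while ESR1, CDH1 and EPCAM stayed at or under 0.0711 CPM in both groups. The other receptor genes, PGR and ERBB2, were detected at 2.86 and 77.9 CPM in shCTRL cells. Of the markers of other cells, PECAM1 was at 3.57 CPM in shCTRL and 3.43 CPM in shCCN3 cells. SNAP25, a neuronal marker, fell from 4.65 to 3.15 CPM (log2 change -0.56, edgeR-adjusted p = 0.0256), and its part in the results on channel genes was not tested. PTPRC, ALB and GFAP were at or under 0.180 CPM in both groups. Within the shCCN3 group, replicate 2 stood further from the other libraries than those did from each other, with a chi-square per degree of freedom of 37.1 and 45.2 against 9.82. Without it 21 channel genes passed, 8 higher and 13 lower, with KCNG3 and KCNN2 lost and KCNIP3 among the genes gained. In all, 7229 genes passed against 5825.

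A large share of the family was at or near 0 in both lines. Of the 96 genes, 39 had 0 counts in each of the 6 libraries, and a further 18 had at most 21 counts in any library and were not tested. The other 39 genes passed edgeR's filter on low counts and were tested with its quasi-likelihood test. The genes at 0 included KCNA1, KCNA2, KCNA3, KCNA4, KCNA5, KCNA6 and KCNA10 of the Kv1 (Shaker) pore subunits, KCND2 and KCND3 of the Kv4 pore subunits, KCNQ1, and KCNH2, which encodes the hERG channel. KCNA7, the remaining Kv1 pore gene, had 2 counts in 1 shCTRL library and 0 in the other libraries. KCNE1 and KCNE1B, as well as KCNJ12 and KCNJ18, are pairs of near-identical genes, so that their counts are uncertain. At this depth, a change in the genes at 0 counts was not detectable.

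An adjusted p under 0.05 was found for 21 (53.8%) of the 39 genes tested, against 33.4% of the 17419 genes tested in all. Of these, 9 were higher in shCCN3 cells, where 16.2% of all genes tested were higher, and 12 were lower, where 17.3% of all genes were lower. Both an adjusted p under 0.05 and an at least 2-fold change were found for 11 of the 39 genes tested, 4 higher and 7 lower. Over all 17419 genes tested, the share was 8.10%. Without shCTRL replicate 2, 6 such channel genes were left. The groups did not overlap for 25 of the 39 genes, compared with 46.3% of all genes tested. The median log2 fold change of the 39 genes was -0.19 and that of all genes was 0.01, while the median size of the change, regardless of its direction, was 0.47 and 0.24. KCNJ3, KCNN2 and KCNT2 passed the filter through the shCCN3 libraries alone and were therefore bound to differ. KCNF1, KCNG3 and KCNQ3 reached the filter's cutoff of 0.152 CPM in every shCTRL library but not in every shCCN3 library. They thus passed it through the group where they were higher, which limits their adjusted p-values. The counts of genes that passed therefore describe the family and are not given as evidence about it. A lower share of cells transcribing a gene and less mRNA in each cell cannot be told apart in these bulk libraries.

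**Figure D1:**
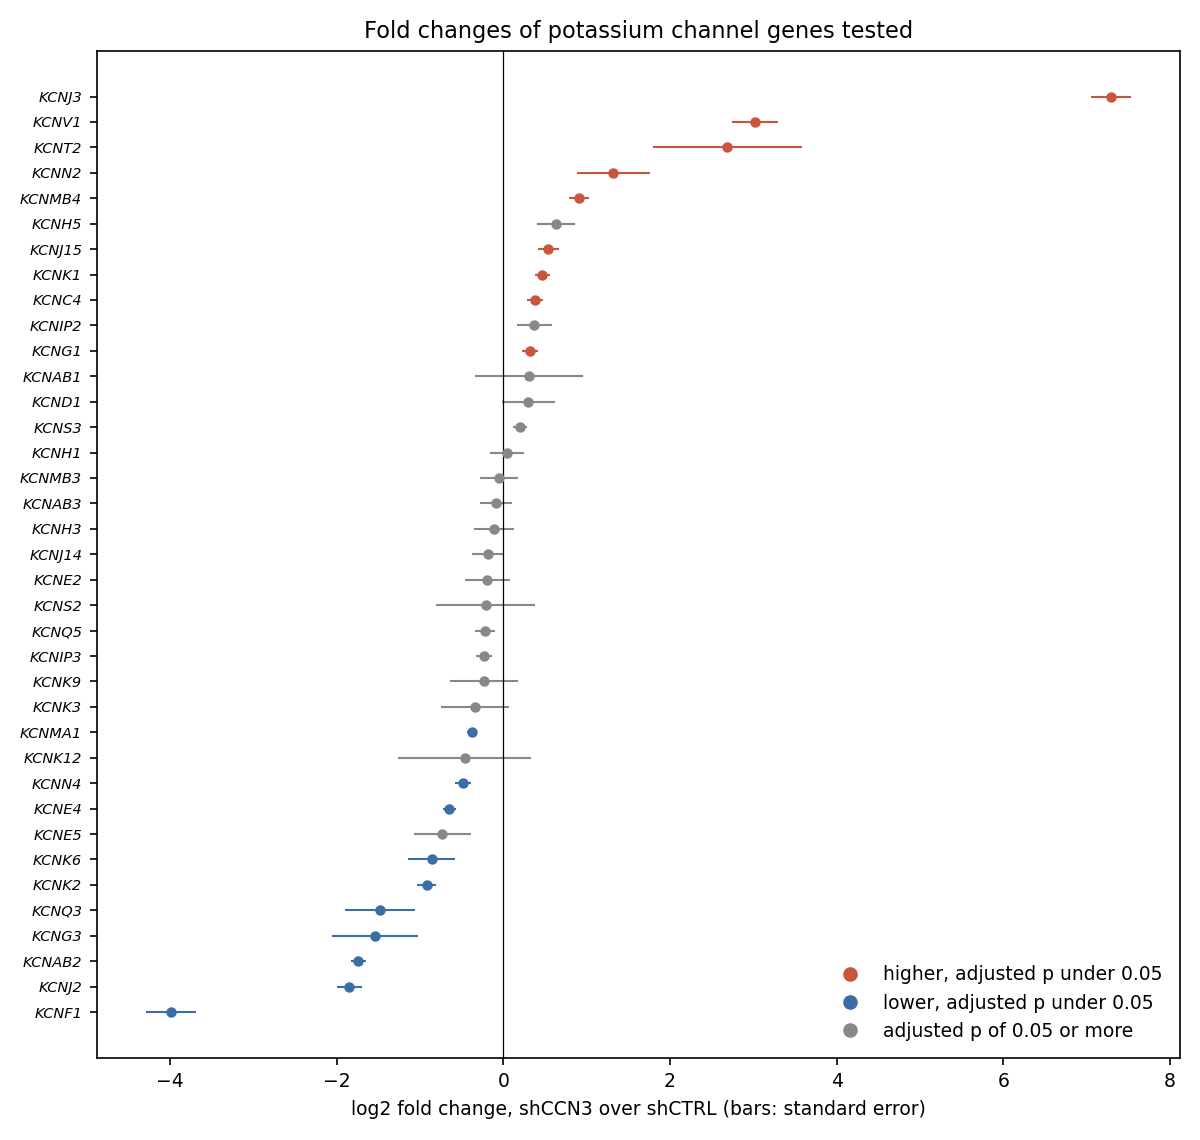
Log2 fold change of shCCN3 over shCTRL (horizontal axis) with its SE for 37 of the 39 genes tested, sorted by value. Changes run from -3.99 for KCNF1 to 7.29 for KCNJ3, and the genes that did not pass an adjusted p of 0.05 (gray) lie between -0.73 and 0.63.

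KCNJ3 and KCNF1 showed the largest changes in either direction, and both lie on chromosome 2. The 300 bases from 250 before to 50 after their RefSeq gene starts are shown as the promoters of the gene that was nearly absent in shCTRL cells and of the gene that was nearly absent in shCCN3 cells. Capitals mark CpG dinucleotides, the sites of DNA methylation, of which the KCNJ3 promoter (plus strand, GRCh38.p14, chr2:154698445-154698744) holds 15 and the KCNF1 promoter (plus strand, GRCh38.p14, chr2:10911684-10911983) holds 22, written 5′ to 3′.
KCNJ3: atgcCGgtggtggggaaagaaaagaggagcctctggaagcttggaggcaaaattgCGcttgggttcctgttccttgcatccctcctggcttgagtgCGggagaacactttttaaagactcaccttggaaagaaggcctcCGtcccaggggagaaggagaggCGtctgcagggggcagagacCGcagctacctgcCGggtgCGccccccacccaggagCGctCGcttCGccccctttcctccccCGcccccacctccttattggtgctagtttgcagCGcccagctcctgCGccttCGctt
KCNF1: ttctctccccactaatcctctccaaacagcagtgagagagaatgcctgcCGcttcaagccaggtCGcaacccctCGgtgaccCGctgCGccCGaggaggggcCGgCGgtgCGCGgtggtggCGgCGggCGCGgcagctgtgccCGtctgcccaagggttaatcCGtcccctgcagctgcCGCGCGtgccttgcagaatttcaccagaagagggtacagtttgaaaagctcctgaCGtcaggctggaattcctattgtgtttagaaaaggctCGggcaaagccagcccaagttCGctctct

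Promoters of the same length were given for 72 of the 96 genes, 110 promoters in all, and the median CpG number was 15.5 for genes tested and 19.0 for genes at 0 counts, with a median of 14 over all 35116 promoters of the RefSeq table. Both printed promoters are among the 40 promoters of tested genes, whose CpG numbers ran from 1 to 54. DNA methylation was not measured. Searched on both strands, the E-box CACGTG was found in 7.27% of the promoters of the family and in 7.26% of all promoters. The letters CTTTGAT, a TCF/LEF motif, were found in 4.55% and 2.62%, and GGAATG, a TEAD motif, in 10.9% and 14%. The promoters of KCNJ3 and KCNF1 carried none of the 3 motifs.

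Among the inward rectifiers (KCNJ), which pass potassium more readily into than out of the cell, 4 of 16 genes were tested. Of these 4 genes, 3 passed, against 33.4% of all genes tested. KCNJ3 encodes Kir3.1 (GIRK1), a subunit of G protein-gated channels. Its level was 0.0291, 0.0318 and 0.0447 CPM in the 3 shCTRL libraries, which are 2, 2 and 3 counts, and 5.24, 5.70 and 6.57 CPM in the shCCN3 libraries, which are 361, 317 and 420 counts. The shCTRL libraries were at or under the floor of 3 counts, and each shCCN3 library was above 5 CPM. From the summed counts, 7 against 1098, the ratio was 167 with a 95% exact interval of 81.0 to 417 for counting error. The fitted log2 change of 7.29 (edgeR-adjusted p = 9.44e-08) depends on the prior count at such low values. KCNJ3 passed the filter through the shCCN3 libraries alone and was bound to differ, so this p-value is not given as evidence. The 24 tested genes nearest to KCNJ3 had a median log2 change of -0.17. The partners with which Kir3.1 forms channels were at or near 0, since KCNJ5 and KCNJ6 had 0 counts in every library and KCNJ9 had 2 counts in 1 shCTRL library.

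KCNJ2 encodes Kir2.1, a strong inward rectifier that holds the membrane near the potassium equilibrium potential. It was at 5.85, 4.79 and 5.59 CPM in shCTRL and at 1.35, 1.42 and 1.72 CPM in shCCN3 libraries. It thus fell 3.61-fold without overlap, with a log2 change of -1.85 (SE 0.149, edgeR-adjusted p = 1.98e-05). Its antisense neighbor KCNJ2-AS1 reached at most 20 counts in any library. KCNJ15, which encodes Kir4.2, rose from 3.31 ± 0.240 to 4.83 ± 0.475 CPM (SD, n = 3 each), with log2 change 0.54 (edgeR-adjusted p = 0.00882). It lies on chromosome 21, where the tested genes had a median of 0.23 and its 24 nearest tested genes a median of 0.25. The part of that shift in the rise of KCNJ15 was not tested. KCNJ14 had an edgeR-adjusted p of 0.521 at a log2 change of -0.18.

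Among the Kv1 to Kv4 pore subunits, which open on depolarization, 3 of 17 genes were tested. KCNB2 (Kv2.2) had 0 counts in all libraries. KCNC4, which encodes the fast-inactivating Kv3.4, was at 8.15, 8.13 and 8.48 CPM in shCTRL and at 11.1, 9.70 and 11.5 CPM in shCCN3 libraries. It rose by a log2 change of 0.38 (edgeR-adjusted p = 0.0116), while its 24 nearest tested genes had a median of -0.31. KCND1 (Kv4.1) had an edgeR-adjusted p of 0.518 at a log2 change of 0.30.

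The electrically silent subunits, which assemble with Kv2 pore subunits, moved in both directions. Of 10 genes, 6 were tested, 2 were higher and 2 were lower, against 16.2% and 17.3% of all genes tested. KCNF1 (Kv5.1) was at 3.45, 3.22 and 3.89 CPM in shCTRL libraries and at 0.334, 0.108 and 0.203 CPM in shCCN3 libraries. Each shCCN3 library stayed under 0.5 CPM. The shCCN3 replicate 2 was under the filter's cutoff of 0.152 CPM, so KCNF1 passed the filter through the shCTRL libraries. KCNF1 fell 15.8-fold (log2 change -3.99, SE 0.298, edgeR-adjusted p = 1.27e-05), with a median of -0.08 over its 24 nearest tested genes. KCNV1 (Kv8.1) went the opposite way, from 0.742, 0.414 and 0.358 CPM in shCTRL to 4.06, 3.37 and 4.89 CPM in shCCN3 libraries. This was an 8.09-fold rise without overlap, with a log2 change of 3.02 (SE 0.275, edgeR-adjusted p = 4.22e-05) and a median of 0.28 over its 24 nearest tested genes.

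KCNG1 (Kv6.1) rose slightly, from 10.8 ± 0.303 to 13.4 ± 1.47 CPM (SD, n = 3 each), with log2 change 0.32 and edgeR-adjusted p = 0.0305. This call was lost when shCCN3 replicate 1 or any shCTRL library was left out, with an adjusted p of at most 0.121. KCNG3 (Kv6.3) was at 0.408, 0.780 and 0.253 CPM in shCTRL and at 0.247, 0.126 and 0.109 CPM in shCCN3 libraries. The lowest shCTRL and the highest shCCN3 library nearly touched, and the adjusted p of KCNG3 was 0.0444. Replicates 2 and 3 of shCCN3 were under the filter's cutoff of 0.152 CPM, so KCNG3 passed the filter through the shCTRL libraries. The call of KCNG3 was lost without shCTRL replicate 1 or 2 and without shCCN3 replicate 2 or 3, and also with limma-voom and without the filter on low counts. KCNS3 (Kv9.3) was at 13.7, 12.3 and 12.6 CPM in shCTRL and at 15.7, 14.3 and 14.3 CPM in shCCN3 libraries. The groups did not overlap, but its adjusted p was 0.102 at a log2 change of 0.20, and its 24 nearest tested genes had a median of 0.67.

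To set levels of different genes side by side, CPM was divided by the exonic length of each gene in kb. On this scale the summed silent subunits were at 12.1, 11.6 and 11.7 CPM per kb in shCTRL and at 13.9, 11.9 and 12.3 CPM per kb in shCCN3 libraries (exact permutation p = 0.2, two-sided, where 3 libraries against 3 cannot go below 0.1). The sum was carried by KCNG1 and KCNS3 in both groups, with 4.87 and 5.08 CPM per kb in shCTRL cells and 6.07 and 5.82 CPM per kb in shCCN3 cells. These are levels of mRNA, and channel protein was not analysed here. AMIGO1, a membrane protein that accompanies Kv2 channels, fell from 6.96 ± 0.554 to 4.04 ± 0.649 CPM (SD, n = 3 each), with an edgeR-adjusted p of 0.00214 at a log2 change of -0.78. The 24 tested genes nearest to AMIGO1 had a median of -0.28, whose part in the fall was not tested.

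Among the KCNQ genes, whose channels carry slow, non-inactivating currents, 3 of 5 were tested. KCNQ3 fell from 0.635 ± 0.0366 to 0.231 ± 0.126 CPM (SD, n = 3 each), with log2 change -1.48 and edgeR-adjusted p = 0.0235, and the call was lost without any 1 of the 3 shCTRL libraries. KCNQ3 passed the filter through the shCTRL libraries, since shCCN3 replicate 1, at 0.0871 CPM, was under the cutoff of 0.152 CPM. KCNQ5 was at 2.09 CPM per kb in shCTRL cells and had an edgeR-adjusted p of 0.194 at a log2 change of -0.22. Of the KCNH genes, KCNH1 (Eag1) had a log2 change of 0.04, KCNH3 one of -0.11 and KCNH5 one of 0.63, and none of the 3 passed, with adjusted p-values of 0.901, 0.770 and 0.0596.

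Genes of channels opened by calcium, KCNN4 and KCNMA1, ranked first and second per kb of exonic length in both lines. KCNMA1, the pore of the large-conductance BK channel, was at 270, 261 and 266 CPM in shCTRL and at 195, 217 and 201 CPM in shCCN3 libraries. It fell 1.30-fold without overlap, with a log2 change of -0.38 (SE 0.0601, edgeR-adjusted p = 0.00118). Its 24 nearest tested genes on chromosome 10 had a median of -0.24, and the part of that shift in the fall was not tested. KCNMA1 took 50.5% ± 0.785 of the summed CPM of the family in shCTRL cells and 51.6% ± 1.24 in shCCN3 cells (SD, n = 3 each, CPM scale). Its exons span 21442 bases in GENCODE release 29, and per kb KCNMA1 made up 14.6% ± 0.524 and 14.2% ± 0.485 of the family. Over all members, the summed level was 525, 522 and 530 CPM in shCTRL and 387, 410 and 390 CPM in shCCN3 libraries (exact permutation p = 0.1, two-sided).

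KCNN4 encodes the intermediate-conductance channel KCa3.1 and was the highest member per kb in both groups, with 26.9 ± 2.26 and 19.3 ± 2.33 CPM per kb (SD, n = 3 each). In CPM it was at 56.4, 58.8 and 66.1 in shCTRL and at 39.7, 49.4 and 41.1 in shCCN3 libraries. KCNN4 fell 1.39-fold without overlap, with a log2 change of -0.48 (SE 0.0966, edgeR-adjusted p = 0.00454). The small-conductance gene KCNN2 was near the floor, with 8, 9 and 4 counts in shCTRL and 17, 17 and 16 counts in shCCN3 libraries, and its adjusted p was 0.0460. The call of KCNN2 was lost without any 1 of the 6 libraries, with DESeq2's test (adjusted p = 0.0972) and without the filter on low counts. KCNN1 had 10, 8 and 15 counts in shCTRL and 0 counts in each shCCN3 library. It did not pass the filter on low counts and was chosen after its values were seen. The 95% exact upper limit of its ratio of shCCN3 to shCTRL was 0.126, for counting error only. KCNT2, a sodium-activated channel (Slick), had 9, 0 and 0 counts in shCTRL and 28, 16 and 13 counts in shCCN3 libraries, a ratio of 6.76 with a 95% exact counting interval of 3.32 to 15.5 and an adjusted p of 0.0446. The call of KCNT2 was lost without shCTRL replicate 2 or 3, without shCCN3 replicate 1 or 3 and without the filter on low counts. Its fitted log2 change of 2.69 became 7.27 without shCTRL replicate 1, which held all its shCTRL counts. KCNN2 and KCNT2 passed the filter through the shCCN3 libraries alone and were bound to differ, so their adjusted p-values are not given as evidence.

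In levels per kb of exonic length, the order in shCTRL cells was KCNN4, KCNMA1, KCNIP3, KCNAB2, KCNS3, KCNG1, KCNE4, KCNK1, KCNK2 and KCNQ5. Of these neighbors, KCNAB2 with KCNS3, KCNS3 with KCNG1, and KCNK2 with KCNQ5 overlapped in their libraries and did not differ beyond their spread. In shCCN3 cells KCNN4 and KCNMA1 came first again, followed by KCNG1 and KCNS3, and KCNAB2 stood at rank 9 where it had been at rank 4 in shCTRL cells. Exonic length counts every annotated exon of a gene, so that genes with many alternative exons, such as KCNMA1, come out lower.

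The tandem-pore channels (KCNK) carry background leak currents. KCNK2, which encodes the mechanically gated TREK-1, was at 8.37, 7.61 and 9.22 CPM in shCTRL and at 4.79, 4.18 and 4.36 CPM in shCCN3 libraries. It fell 1.89-fold, with a log2 change of -0.92 (SE 0.112, edgeR-adjusted p = 0.000242), and the groups did not overlap. KCNK1 (TWIK-1) rose from 6.54 ± 0.199 to 9.04 ± 0.687 CPM (SD, n = 3 each), with log2 change 0.47 and edgeR-adjusted p = 0.00468. KCNK6 (TWIK-2) was at 7.47, 7.37 and 8.36 CPM in shCTRL and at 4.63, 5.99 and 2.19 CPM in shCCN3 libraries. The spread among shCCN3 libraries was wide, and the adjusted p of KCNK6 was 0.0439. The call of KCNK6 was lost without shCCN3 replicate 1, without any shCTRL library and without the filter on low counts, and its log2 change of -0.86 became -0.54 without shCCN3 replicate 3. KCNK3, KCNK9 and KCNK12 were under 1 CPM in every library and did not pass.

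Among the auxiliary subunits, 10 of 17 genes were tested, 1 was higher and 2 were lower, or 30% of those tested, near the 33.4% of all genes. KCNAB2 encodes Kvβ2, a cytoplasmic partner of Kv1 pore subunits that resembles aldo-keto reductases. It was at 37.4, 37.1 and 38.2 CPM in shCTRL and at 9.85, 11.8 and 12.2 CPM in shCCN3 libraries. KCNAB2 fell 3.34-fold without overlap, with a log2 change of -1.74 (SE 0.0902, edgeR-adjusted p = 1.52e-06). The Kv1 pore genes were at 0 counts apart from the 2 counts of KCNA7, so that KCNAB2 mRNA was present in both lines with mRNA of that pore family at or under the floor of 3 counts. NPHP4, which overlaps KCNAB2 on the opposite strand, was at 23.1 CPM in shCTRL and 21.1 CPM in shCCN3 cells, and the 24 tested genes nearest to KCNAB2 had a median of -0.24, whose part in the fall was not tested.

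KCNE4, a single-span subunit known to inhibit KCNQ1 channels, fell from 14 ± 0.407 to 8.89 ± 0.261 CPM (SD, n = 3 each), with log2 change -0.65 (SE 0.0779, edgeR-adjusted p = 0.000214), while KCNQ1 itself had 0 counts in every library. KCNMB4, the β4 subunit of the BK channel, rose from 2.85, 2.59 and 2.58 CPM in shCTRL to 4.80, 5.29 and 4.96 CPM in shCCN3 libraries. The log2 fold change of KCNMB4 was 0.91 (SE 0.117) with an adjusted p of 0.000345, opposite to that of the pore gene KCNMA1. Per kb, KCNMB4 amounted to 4.56% ± 0.202 of KCNMA1 in shCTRL and 11.1% ± 0.0781 in shCCN3 cells (SD, n = 3 each, exact permutation p = 0.1, two-sided). Of the other β subunits, KCNMB1 and KCNMB2 had at most 8 counts in any library and KCNMB3 had an edgeR-adjusted p of 0.895 at a log2 change of -0.05. KCNIP3, a calcium-binding partner of Kv4 pore subunits also known as calsenilin, was the third most abundant member per kb in shCTRL cells and had an edgeR-adjusted p of 0.0798 at a log2 change of -0.23.

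**Figure D2:**
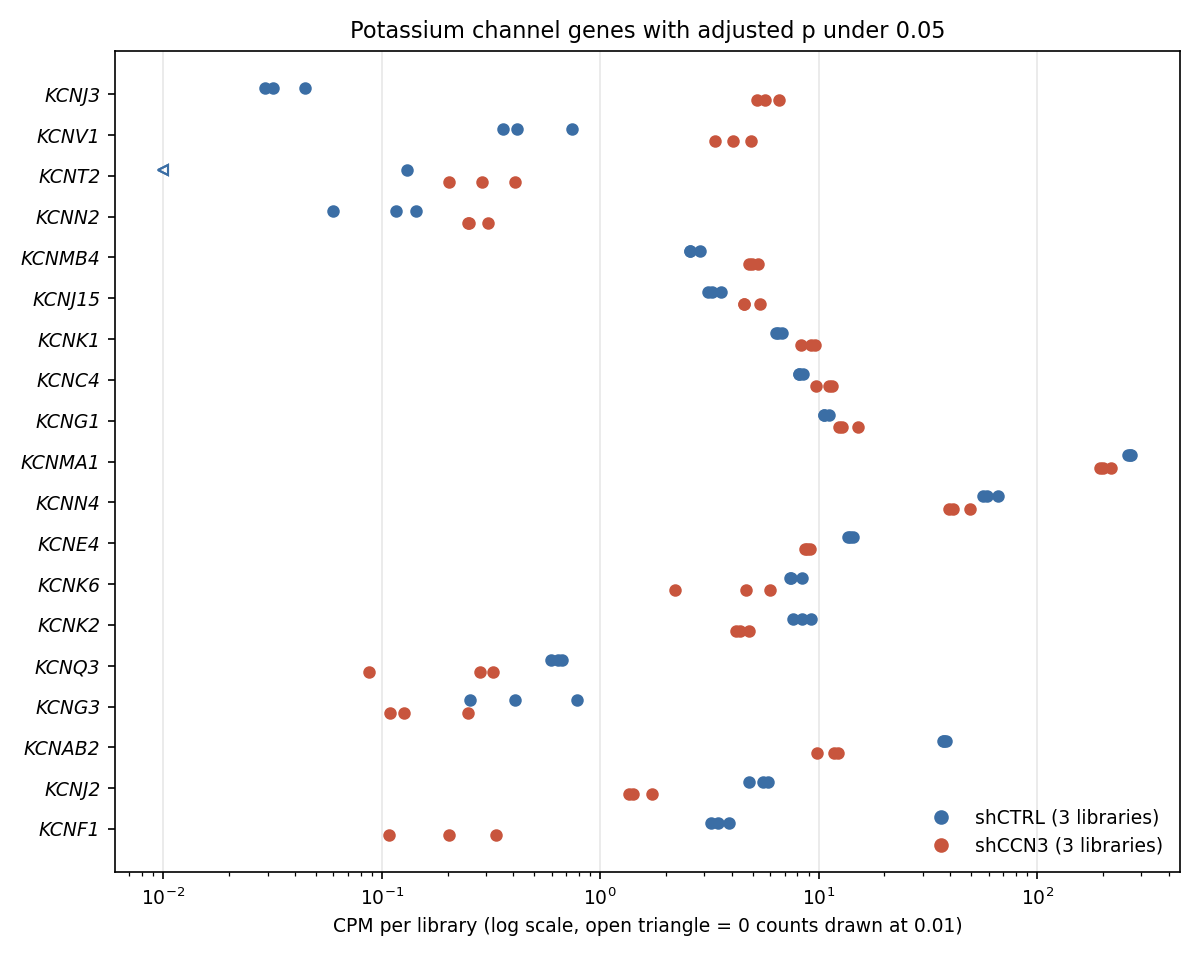
CPM of each library (horizontal axis, log scale) for 19 of the 21 genes that passed, sorted by fold change, with shCTRL libraries in blue and shCCN3 libraries in red. The 2 shCTRL libraries of KCNT2 with 0 counts are drawn as open triangles at the left edge, on top of each other. Of the genes shown, KCNJ3 and KCNF1 have the widest gaps between the groups, and KCNG3 the narrowest.

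Some chromosomes were shifted as a whole, such as chromosome 7 with a median log2 change of -0.43 over its tested genes, so each channel gene was set beside its neighbors. For 19 of the 21 genes that passed, those given here, the 24 nearest tested genes had median log2 fold changes between -0.31 (KCNC4) and 0.28 (KCNV1). KCNJ3, KCNF1 and KCNJ2 changed by at least 1.85 on the log2 scale where their neighbors had medians of -0.17, -0.08 and 0.01. KCNJ3 and KCNJ2 had the opposite sign to these medians, as had KCNC4, KCNK2, KCNQ3, KCNG3, KCNE4 and KCNN4, whose neighbors had medians of -0.31, 0.09, 0.12, 0.07, 0.04 and 0.01. Medians as near 0 as 0.01 have a sign that says little. KCNF1, KCNV1, KCNAB2, KCNMA1, KCNJ15, KCNG1, KCNK1, KCNMB4, KCNN2, KCNT2 and KCNK6 had the same sign as their neighbors. Among these, the neighbors of KCNAB2, KCNMA1 and KCNJ15 had medians of -0.24, -0.24 and 0.25. The part of such shifts in these changes was not tested. DNA copy number was not measured.

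Partner proteins and genes of potassium transport were listed apart from the channels. Of 13 channel partners, 5 were tested and 2 were lower, where 17.3% of all genes tested were lower. These were AMIGO1 and TMEM175, a lysosomal potassium channel with a log2 change of -0.47. The regulatory subunits of BK channels LRRC26, LRRC38, LRRC52 and LRRC55 had 0 counts in all libraries. Of 32 genes of potassium transport, 15 were tested, 4 were higher and 2 were lower, against 33.4% of all genes tested that passed. ATP1B1, a subunit of the pump that exchanges sodium for potassium, rose from 12.4 ± 1.10 to 18.5 ± 1.11 CPM (log2 change 0.58, edgeR-adjusted p = 0.00111), while ATP1B3, at 308 CPM in shCTRL cells, had an edgeR-adjusted p of 0.540 at a log2 change of -0.05. FXYD5, a pump modulator, had a log2 change of 0.40 (edgeR-adjusted p = 0.0122). The kinases WNK4 and STK39, which regulate chloride cotransporters, had log2 changes of 1.07 and -0.27 and passed, WNK4 at a mean under 1 CPM in both groups.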

How the data were processed

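RNA of Hs578T shCTRL and shCCN3 cells (3 libraries each) had been sequenced from libraries made with a stranded mRNA kit. The authors deposited raw read counts per gene for 46427 genes, without normalization. The submitters' processing notes name bcl2fastq 2.20.0, Trimmomatic, HISAT2 2.1.0, StringTie 2.1.3d and DESeq2, and GRCh38, without their roles. Annotation and strand setting are not given in the sources used here, so values of overlapping and near-identical genes are uncertain. Libraries were assigned by column names and labels.

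Counts were analysed with edgeR 4.0.16 in R 4.3.3 by TMM scaling, filtering by expression, and its quasi-likelihood test, with p-values adjusted over 17419 genes by Benjamini-Hochberg. A gene passed at an adjusted p under 0.05. Standard errors are the log2 fold change over the root of F. Single values were compared by exact permutation tests (two-sided), which cannot go below p = 0.1. Exonic lengths came from GENCODE release 29 for 95 members, positions and promoters from RefSeq on GRCh38.p14, which matched 44698 Gene IDs and all 96 members.

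Named genes were the members with an adjusted p under 0.05, at least 1 CPM on average and no overlap (16 genes), members present in 1 group only, the 10 highest per kb in shCTRL cells, partner genes with at least 2-fold changes and at least 1 CPM (none), and CCN3. Other members were named beside their class. Some genes that these rules name are counted but not reported here. The members and lists were chosen with earlier results of these data known. Alternatives were DESeq2 size factors, upper-quartile scaling, no filter, at least 10 counts in every library, DESeq2 1.42.0, limma-voom (limma 3.58.1), a replicate block and leaving out each library. Scripts were tested on simulated data.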

Additional observations from a re-analysis of the deposited data

How the results depend on the processing

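Of the 21 potassium channel genes that passed, 15 passed under each of the 13 alternatives that tested them, and none changed direction. The calls of KCNG1, KCNG3, KCNK6, KCNN2, KCNQ3 and KCNT2 were lost under some. The count of channel genes that passed lay between 15 and 21, and that of genes changed at least 2-fold, 11, went to 5 with at least 10 counts in every library, a filter that removes KCNJ3, KCNF1, KCNG3, KCNN2, KCNQ3 and KCNT2. It ranged from 6 to 11 with a library left out, the lowest being without shCTRL replicate 2. The median log2 fold change of the channel genes was -0.12 with limma-voom against -0.19. Replicate numbers are shared between groups, and the deviations of same-numbered libraries correlated at 0.149, -0.0726 and -0.259, so the numbers were not taken as pairs and libraries did not all correlate best with their own number. With a replicate block, 18 channel genes passed in place of 21 and 4887 genes in place of 5825 among all genes, and KCNG1 (adjusted p = 0.0624), KCNG3 (0.0509) and KCNN2 (0.0929) did not pass in edgeR's test. Depth limits the 18 channel genes with some counts that were not tested, at 21 counts or fewer in any library.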

Other observations

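Genes of calcium and chloride channels that act beside potassium channels were set apart as a further list of 24 genes, of which 19 were tested, 3 were higher and 4 were lower, with a median log2 change of -0.08. Over all genes tested, 16.2% were higher and 17.3% were lower. Of the store-operated calcium entry genes, ORAI2 fell from 56 ± 1.81 to 29.3 ± 0.817 CPM (SD, n = 3 each), with log2 change -0.94 (SE 0.0616, edgeR-adjusted p = 6.07e-06). ORAI2 lies on chromosome 7, whose tested genes had a median of -0.43, and its 24 nearest tested genes had a median of -0.42. ORAI3, with a log2 change of -0.58, and STIM2, a calcium sensor of the endoplasmic reticulum with -0.61, also fell. ORAI1 and STIM1 did not pass, with log2 changes of -0.11 and 0.10 and adjusted p-values of 0.414 and 0.301.

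CACNA1C, the pore of the L-type calcium channel Cav1.2, fell from 30 ± 1.27 to 18.0 ± 0.774 CPM (SD, n = 3 each), with log2 change -0.74 (edgeR-adjusted p = 5.89e-05). The mechanically gated channel PIEZO1 rose from 147 ± 2.09 to 225 ± 20.4 CPM (log2 change 0.61, edgeR-adjusted p = 0.000205). The 24 tested genes nearest to PIEZO1 had a median of 0.59. PIEZO2 had an edgeR-adjusted p of 0.0745 at a log2 change of 0.33. ANO6, a calcium-activated scramblase and channel, had a log2 change of 0.40 (edgeR-adjusted p = 0.0218), and TRPV4, at under 0.5 CPM in both groups, one of 1.77 (edgeR-adjusted p = 0.0162). TRPV4 had 4, 6 and 8 counts in shCTRL and 29, 12 and 19 counts in shCCN3 libraries. It passed the filter on low counts through the shCCN3 libraries alone and was bound to differ, so its adjusted p is not given as evidence. TRPV4 is among the 3 genes of this list counted as higher.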
